A study of Quercus robur with 12 samples.

Results

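The miRNAs described here are the members of the miR156 and miR172 families of pedunculate oak (Quercus robur), chosen by name, with earlier results of these data known. They comprised 4 of the 75 miRNAs counted, namely qrb-miR156a, qrb-miR156b and qrb-miR156c of the miR156 family and qrb-miR172a, the single member of the miR172 family in the table (the prefix qrb- is left out from here on). The libraries were made from small RNAs of root tips that held the meristematic zone of 1-year-old wild-type seedlings. Each of the 4 groups had 3 libraries. TR-CT and LR-CT were the taproots (TR) and lateral roots (LR) of fully watered control plants (CT). TR-DS and LR-DS were the same root types under drought stress (DS), in which soil moisture was lowered to 25% of the control for 4 weeks after 8 weeks of acclimatization. All plants were kept in rhizotrons, which are flat transparent growth chambers, and each replicate pooled 10 to 15 root tips. Some seedlings had been raised in containers and others sown directly as acorns, and per the study's methods both kinds were put under drought. The labels do not give the cultivation of each library, so its part in the results was not tested. In bulk samples of this kind, fewer cells of a type and less RNA per cell cannot be told apart.

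In Arabidopsis thaliana, miR156 keeps plants in the juvenile phase by repressing SPL (squamosa promoter-binding-like) transcription factors, and its level declines as a shoot ages. SPL proteins in turn activate genes that encode miR172, which represses AP2-like transcription factors and accumulates as miR156 declines. The pair is therefore known as the age pathway, and in Arabidopsis the miR156 and SPL module also acts on the number of lateral roots.

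The mature sequences are shown because they define the families and because the forms of miR156 are nearly alike. They were listed by the study under family names for its analysis of cleaved target transcripts, and the capitals mark the seed, which is bases 2 to 8 from the 5′ end.
miR156 form 1: uGACAGAAgagagugagc
miR156 form 2: cGACAGAAgagagugagc
miR157: uUGACAGAagauagagagc
miR172: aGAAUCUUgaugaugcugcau
The 2 forms of miR156 were 18 nt long, shared the seed GACAGAA and differed at position 1 only, where form 1 has U and form 2 has C. miR157, a close relative of miR156, was 19 nt long. Its seed, UGACAGA, is the miR156 seed shifted by a single base. miR172 was 21 nt long and shared its seed with none of them. Which form belongs to miR156a, miR156b or miR156c is not given in the sources used here. The division of reads among these near-identical members is therefore less certain than the family total.

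The sequences of the sites assigned to both families in that list show how each family pairs with its targets. The capitals here mark bases of the site that do not form a Watson-Crick pair with the miRNA.
Site for miR156 form 1 in an SPL16-annotated transcript: gcucUcucucuucuguca
Other site for miR156 form 1: Ccucacucucuucuguca
Site for miR172: CugcagcaucaucaGgauucu
Other site for miR172: UugcagcaucaucaGgauucu
The list held 6 transcripts for miR156 and 4 for miR172. The first miR156 site pairs with form 1 at 17 of 18 bases. The same site pairs with form 2 at 16 of 18 bases, because the base opposite position 1 no longer matches. Both miR172 sites shown pair at 19 of 21 bases with 1 G:U pair. A further site listed for miR172, which is not shown, pairs less well, at 15 of 21 bases with 1 G:U pair. Among these transcripts, the annotated one encodes an SPL protein, the class of target known for miR156. The transcripts listed for miR172 carried no annotation.

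The counts assigned to miRNAs summed to between 160039 (LR-DS replicate 3) and 1267473 (TR-CT replicate 2) per library. A single 16-nt sequence took between 34.1% and 89.1% of them, so that normalised values depended on how the libraries were scaled. Together the 4 members took 0.0453% to 0.190% of a library, or 173 to 1603 counts. A floor of 3 counts corresponded to between 1.65 and 20.0 CPM, the normalised read count, after scaling by TMM, edgeR's trimmed mean of M-values. Floors and counting intervals reflect counting error alone and leave out the spread between libraries. PCR copies could also not be told from separate molecules. By Spearman correlation over the miRNAs, TR-CT replicate 3 resembled the drought-stressed taproots (0.873) more than its own group (0.791). The same held for TR-DS replicate 2, with 0.889 to the control taproots and 0.799 to its own group. These libraries kept their labels, and the taproot results were also computed without them.

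Of the members, miR156b supplied nearly all reads of its family and was the only one detected in every library. It had 8623 of the 9118 miR156 counts over the 12 libraries, whereas miR156a had 453 and miR156c had 42. miR172a had 138 counts in 8 libraries. The levels of the 4 members in each library are plotted by group.

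**Figure D1:**
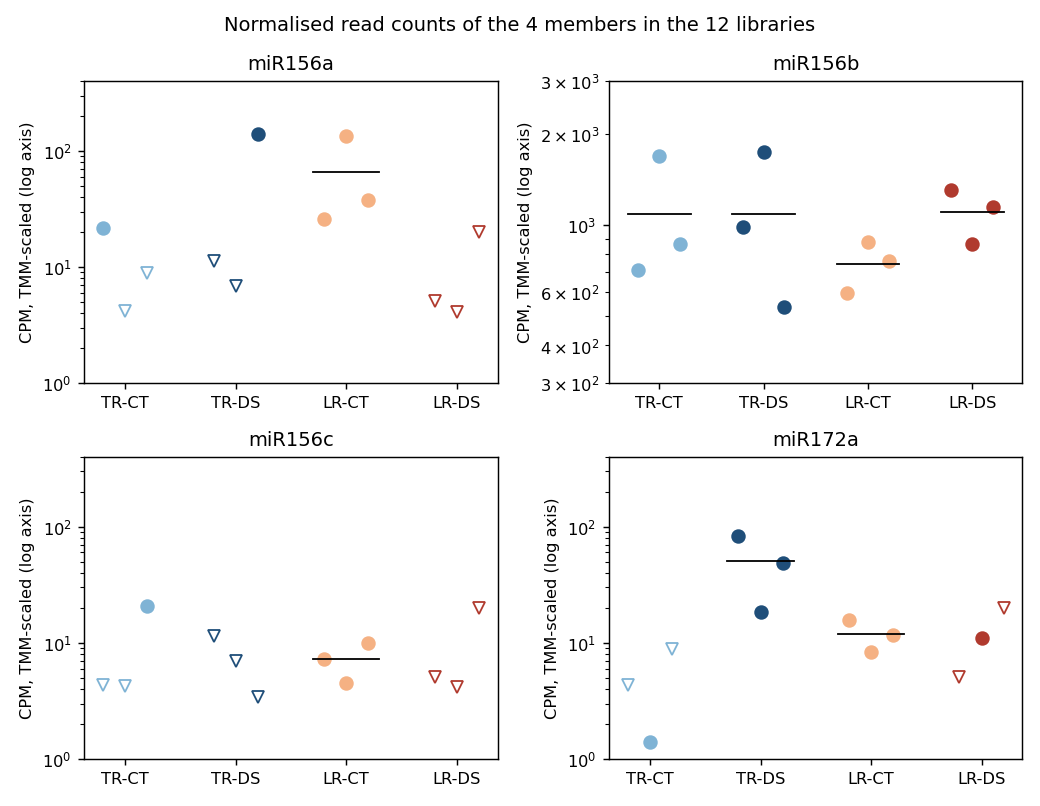
Normalised read counts of miR156a, miR156b, miR156c and miR172a, in TMM-scaled CPM on log axes, in the 3 libraries of each group. Filled points are measured values, open triangles mark the level of 3 counts in libraries with a count of 0, and lines are means of groups in which every library had a count. miR156b has another axis range than the others and is present throughout, whereas miR156a was at 0 in all 3 LR-DS libraries and miR172a stood highest in TR-DS.

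The dominant form, miR156b, was present in every library of all groups. The control taproots had counts of 489, 1208 and 292 in replicates 1 to 3, and drought-stressed taproots had 260, 755 and 472. The control lateral roots had 826, 1372 and 1377 counts, compared with 771, 628 and 173 under drought. After scaling over all 12 libraries, the level of miR156b was 1106 ± 223 CPM in LR-DS, 1090 ± 528 in TR-CT, 1087 ± 612 in TR-DS and 745 ± 144 in LR-CT (SD, n = 3). Each neighbour in this order overlapped with the next. The order depended on scaling: by library size alone the mean was 1335 CPM in LR-CT and 887 in LR-DS.

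miR156a was scattered in taproots and sharply divided by drought in lateral roots. TR-CT had counts of 15, 0 and 0, and TR-DS had 0, 0 and 123, which means that a single library held all reads of either taproot group. LR-CT had 36, 211 and 68 counts, while all 3 libraries of LR-DS were at 0. On the common scale the level was 66.3 ± 60.2 CPM in LR-CT, 46.4 ± 80.4 in TR-DS and 7.26 ± 12.6 in TR-CT (SD, n = 3).

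The rarest member, miR156c, had counts of 10, 7 and 18 in LR-CT, of 0, 0 and 7 in TR-CT and of 0 in all libraries of both drought groups. These counts lie close to the floor of 3 counts, and no fold change is given for miR156c.

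miR172a was low throughout. TR-CT had counts of 0, 1 and 0, whereas TR-DS had 22, 8 and 43. LR-CT had 22, 13 and 21 counts, and LR-DS had 0, 8 and 0. A well-watered lateral root library thus always held more miR172a reads than any control taproot library. Its level was highest in TR-DS at 50.1 ± 32.4 CPM (SD, n = 3), separate from LR-CT at 11.9 ± 3.75. By library size alone these groups overlapped, at 19.5 to 59.3 CPM in TR-DS and 15.4 to 28.8 in LR-CT. LR-DS followed at 3.67 ± 6.35 CPM and TR-CT at 0.467 ± 0.809. LR-CT overlapped with LR-DS, as did LR-DS with TR-CT.

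To ask how drought affected both families in taproots, TR-DS was compared with TR-CT. miR172a was higher in all 3 TR-DS libraries than in any TR-CT library, while miR156b and the miR156 total overlapped between the groups. With 73 counts against 1, the ratio of the pooled levels of miR172a was 125, with an exact 95% counting interval of 21.7 to 4994. A pooled level is the summed counts of a group over its summed scaled library sizes. The edgeR quasi-likelihood F test gave a log2FC of 6.29 ± 1.76 (SE), a value that depends on the prior count because TR-CT was almost without reads. It ranked first of the 75 miRNAs by p-value but did not pass the threshold, with an unadjusted edgeR p of 0.00594 and an FDR of 0.446. In this comparison 0% of the miRNAs were called, although 3 had an unadjusted p under 0.05, and 1.33% were higher without overlap, which was miR172a itself. DESeq2 called 1 miRNA in taproots, miR172a, with a log2FC of 6.96. Its FDR was 0.00543 with a local dispersion trend, which was run first, and 0.0276 with the default trend, which was chosen after those results were seen and is meant by DESeq2 elsewhere. Over all alternatives the FDR of miR172a ranged from 0.00543 to 0.954.

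None of the miR156 members changed past the threshold in taproots. The log2FC of miR156b was 0.50 ± 0.87 (SE, edgeR FDR 0.997) and that of the miR156 total 0.22 ± 0.78 (FDR 0.978). miR156a gave 3.51 ± 2.44 (FDR 0.997). That value rested on TR-DS replicate 3, without which it was -4.64. Without TR-CT replicate 3 and TR-DS replicate 2, the log2FC was -0.53 for miR156b and -0.44 for the miR156 total, so their direction in taproots turned with those libraries. The miR172 total, which has the counts of miR172a but was scaled within the family table, gave 5.95 ± 1.97 (FDR 0.510) with all libraries. It gave 6.48 (FDR 0.0214) without those libraries, whereas miR172a in the table of single miRNAs gave 6.37 (FDR 0.0504). Of the 47 families and sequence-named miRNAs in the family table, 14 were then called in place of 0%. The number called rose in part by construction, since those libraries were singled out for their likeness to the other treatment.

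The same question in lateral roots gave a different picture. miR156a fell: it had 36 to 211 counts in LR-CT and none in LR-DS. Set against the floor of 3 counts per library, its mean level was at least 6.82-fold lower in LR-DS. Without LR-CT replicate 2 the bound was 3.26-fold. The edgeR test passed the threshold with a log2FC of -9.11 ± 1.86 (SE) and an FDR of 0.00399, where the fitted size again depends on the prior count. In this comparison 32% of the miRNAs were called, with 22.7% of all miRNAs called lower and 9.33% called higher. Therefore 1 called member of 4 lay near the background. miR156a and miR156c were both lower without overlap, as were 32% of all miRNAs. Without LR-CT replicate 2 or 3, the number of miRNAs called was 14 or 15 in place of 24. The call on miR156a held under each alternative except 1 fit of all 12 libraries, in which no miRNA was called and its FDR was 0.188.

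The other members did not pass the test in lateral roots. miR156b gave a log2FC of 0.57 ± 0.44 (SE, edgeR FDR 0.338) and miR172a gave -1.32 ± 1.24 (FDR 0.421). miR156c gave an FDR of 0.0592, or 0.0159 by library size alone. miR156b passed when the most abundant sequence was left out of the library size, with a log2FC of 1.23 (FDR 0.0275), and turned to -0.59 by library size alone. The value of miR172a was -6.81 without LR-DS replicate 2, the only LR-DS library with counts of it, and -0.12 without LR-DS replicate 1. When scaled within these 6 libraries, the miR156 total was higher in every LR-DS library than in any LR-CT library, as were 19.1% of the 47 families and sequence-named miRNAs in the family table, but its log2FC of 0.62 ± 0.45 did not pass (FDR 0.265), where 38.3% of that table was called. Scaled over all 12 libraries the groups overlapped, at 864 to 1303 CPM in LR-DS and 628 to 1022 in LR-CT. The direction of that total depended on scaling: it was -0.73 by library size alone and 1.10 (FDR 0.0347) when the most abundant sequence was left out of the library size. DESeq2 gave 0.82 with an FDR of 0.00788. Without LR-DS replicate 3, the shallowest library, edgeR gave 1.04 for the total (FDR 0.00455) and 0.76 for miR156b (FDR 0.0158), so these calls turned on that library. The drought effects in both root types are plotted with those of related miRNAs.

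**Figure D2:**
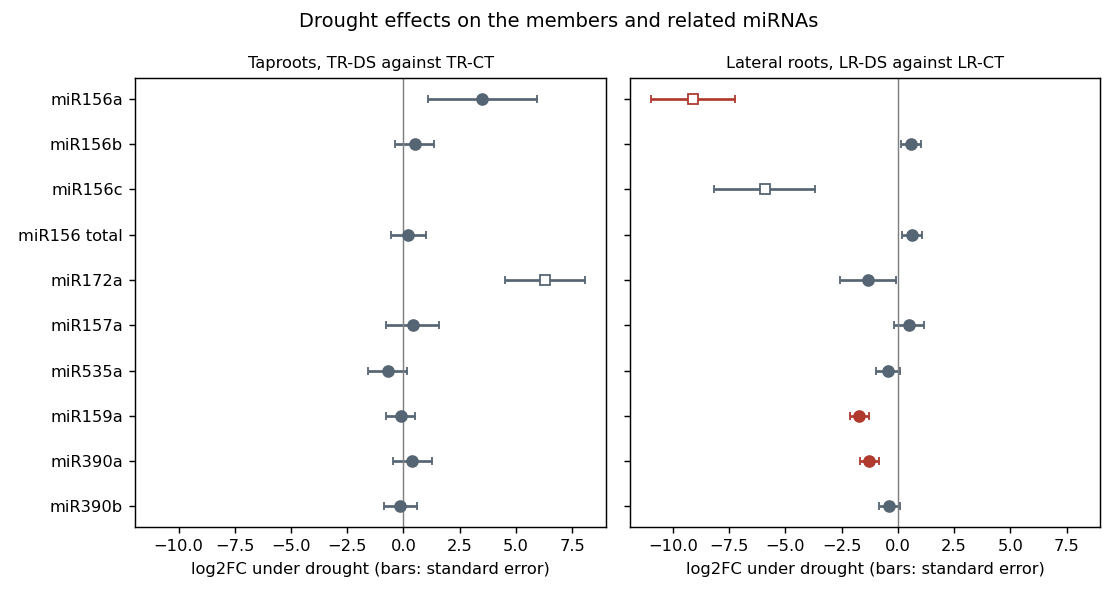
Fitted log2FC of drought against control in taproots (left) and lateral roots (right), with bars of 1 standard error from edgeR (n = 3 per group). Red marks an FDR of at most 0.05, and open squares mark values fitted against a group with at most 1 count in all. miR156a, miR159a and miR390a passed the threshold in lateral roots, all lower, and none passed in taproots. miR156c is not drawn for taproots because it had 7 counts in 1 library only.

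Since the share of miR156a among all miR156 reads is not altered by scaling, it was examined in each library. In LR-CT, miR156a made up 4.13%, 13.3% and 4.65% of the miR156 reads, with 95% Wilson intervals of 3.00% to 5.66%, 11.7% to 15.0% and 3.68% to 5.85%. In LR-DS it made up 0 of 771, 0 of 628 and 0 of 173 reads, which by the floor of 3 counts allows shares of up to 0.389%, 0.478% and 1.73% (upper Wilson limits of 0.496%, 0.608% and 2.17%). All of these limits lie under the lowest share in LR-CT. In taproots the share was 2.98% in TR-CT replicate 1 and 20.7% in TR-DS replicate 3 and 0 elsewhere. miR156b accordingly made up 86.3% to 94.7% of the family in LR-CT and 100% in LR-DS.

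Whether the families moved in opposite directions was asked from the number of miR156 reads per miR172 read, which likewise no scaling changes. In TR-CT, replicate 2 had 1208 miR156 reads and a single miR172 read, and against the floor of 3 counts the number was at least 168 and 99.7 in replicates 1 and 3. In TR-DS it was 11.8, 94.4 and 13.8, so that replicates 1 and 3 lay far under these limits and replicate 2 close to the lowest. In LR-CT it was 39.6, 122 and 69.7. In LR-DS it was 78.5 in replicate 2 and at least 257 and 57.7 in replicates 1 and 3, so that the lateral root groups could not be separated.

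On the log2 scale, the mean ratio in TR-DS minus that in TR-CT was -5.03 with a pseudocount of 0.5 and -4.26 with a pseudocount of 1. In lateral roots the difference was 2.33 or 1.68, with overlapping groups. These sizes depend on the pseudocount wherever miR172 was at or near 0, as in all TR-CT libraries. The ratio in taproots followed miR172, since the miR156 total overlapped between TR-CT and TR-DS. In neither root type did both families pass a test, so opposite movement was not shown. Expressed as a share of both families' reads, miR172 made up 1.05% to 7.80% in TR-DS. In TR-CT it made up 1 of 1209 reads in replicate 2, and the counts of 0 in replicates 1 and 3 allow up to 0.595% and 1.00%. In lateral roots it made up 0.811% to 2.46% in LR-CT and 1.26% in LR-DS replicate 2, while the counts of 0 in LR-DS replicates 1 and 3 allow up to 0.389% and 1.73%.

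**Figure D3:**
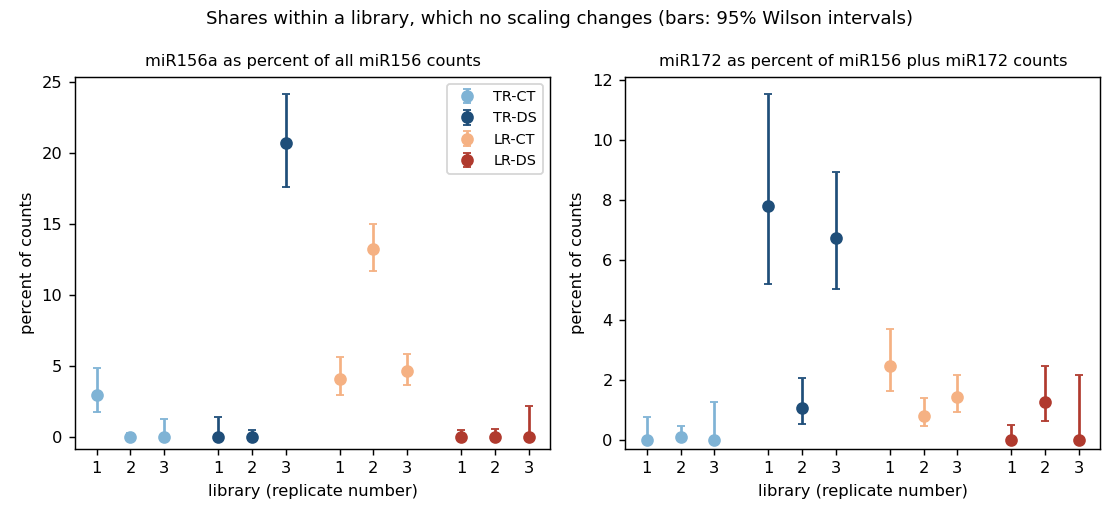
Share of miR156a among miR156 counts (left) and of miR172 among miR156 plus miR172 counts (right), in percent, for each library, with 95% Wilson intervals as bars. miR156a took 4.13% to 13.3% in LR-CT and 0 in LR-DS. miR172 took 1.05% to 7.80% in TR-DS and had 0 or 1 count in each TR-CT library. Of the TR-CT intervals, only that of replicate 3 (up to 1.27%) reaches the value of TR-DS replicate 2, whose own interval starts at 0.532%.

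Whether drought acted differently on both root types was tested as an interaction term with all 12 libraries. The drought effect on miR172a was lower in lateral roots than in taproots by a log2 difference of -7.55 ± 2.25 (SE), with an unadjusted edgeR p of 0.00447 and an FDR of 0.167. That of miR156a differed by -11.35 ± 3.78 (FDR 0.202), or by -17.20 (FDR 0.105) without TR-CT replicate 1. Without TR-DS replicate 3, miR156a had no count in either drought group. The difference could then not be estimated, and the fitted -3.09 had no standard error. Neither miR172a nor miR156a passed, and 0% of the 75 miRNAs were called, with 5 at an unadjusted p under 0.05 and 1 called by DESeq2. That one was miR172a, with a log2 difference of -8.08 and a DESeq2 FDR of 0.0339. For miR156b the difference was 0.57 ± 0.88 (edgeR FDR 0.958).

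**Figure D4:**
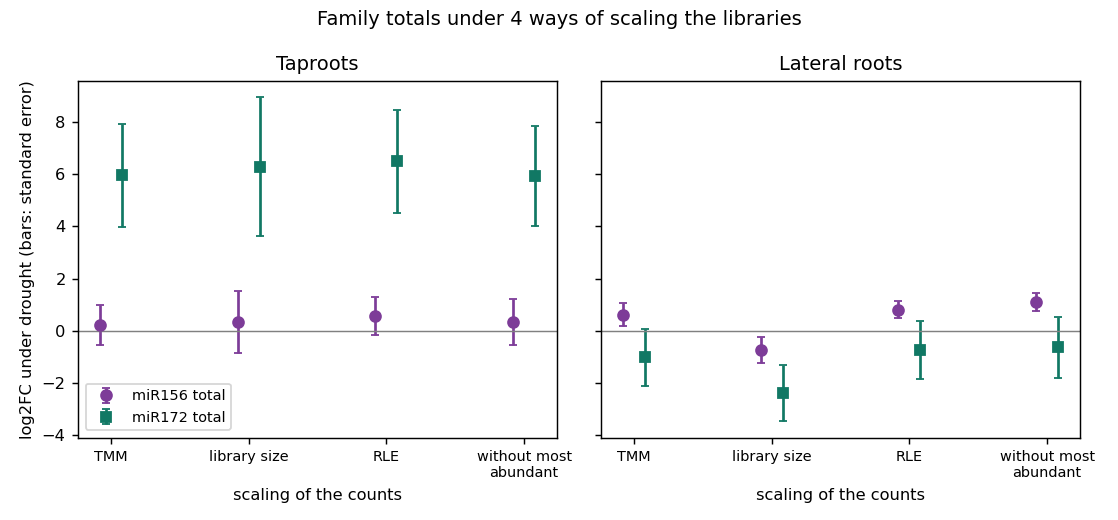
Fitted log2FC of drought for the miR156 total (circles) and the miR172 total (squares) in taproots and lateral roots under 4 scalings of the libraries, with bars of 1 standard error from edgeR (n = 3 per group). The miR172 total stayed above 0 in taproots, and the miR156 total in lateral roots ran from -0.73 by library size to 1.10 without the most abundant sequence.

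Under control conditions, lateral roots were compared with taproots to ask whether the families differed by root type. miR172a was higher in every LR-CT library than in any TR-CT library, with 56 counts against 1 and a ratio of pooled levels of 22.7 (exact 95% counting interval 3.90 to 911). Its log2FC of 4.33 ± 1.22 (SE) did not pass (edgeR FDR 0.369). The miR172 total gave 3.98 ± 1.21 (edgeR FDR 0.256). It passed with DESeq2's local trend (4.20, FDR 0.0299) but not with the default trend (FDR 0.122). miR156a was also higher without overlap, with a log2FC of 2.99 ± 1.62 (FDR 0.445), or 9.23 (FDR 0.116) without TR-CT replicate 1, the only TR-CT library with reads of it. Of all miRNAs, 16% were higher without overlap and 0% were called, with 5 at an unadjusted p under 0.05 and 1 called by DESeq2. miR156b gave -0.50 ± 0.61 (FDR 0.809), and its direction turned to 0.68 by library size alone.

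Under drought, LR-DS and TR-DS shared these drought libraries with the comparisons above. miR156a had no count in LR-DS and 123 in TR-DS, all in replicate 3, and gave an FDR of 0.367, or 0.0208 without TR-DS replicate 1. miR172a gave a log2FC of -2.98 ± 1.72 (SE, edgeR FDR 0.885), and miR156b gave 0.36 ± 0.85 (FDR 0.906). In this comparison 0% of the 74 miRNAs tested were called by edgeR and none by DESeq2, and 4 had an unadjusted p under 0.05.

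Related miRNAs outside the miR156 and miR172 pair were taken from a fixed list of families. Of these, the table held miR157a and miR535a, relatives of miR156. It also held miR159a, which represses GAMYB-like transcription factors, and miR390a and miR390b, which trigger the tasiRNAs that act on auxin response factors. No miR529 was counted. In taproots, 0 of these 5 passed the test in either direction, with a median log2FC of -0.13 beside 0.019 over all miRNAs. In lateral roots 2 of 5 were lower and 0 higher, where 22.7% of all miRNAs were called lower, with a median of -0.46 beside -0.29 over all miRNAs. miR159a fell with a log2FC of -1.71 ± 0.43 (SE, edgeR FDR 0.00891), and miR390a with -1.27 ± 0.43 (FDR 0.0318). By library size alone, miR390b (FDR 0.0275) and miR535a (FDR 0.0393) were called lower as well, so that 4 of 5 passed. Leaving the most abundant sequence out of the library size ended the calls on miR159a and miR390a, with FDRs of 0.0606 and 0.198. Both were also lost without LR-DS replicate 1 (FDRs of 0.0679 and 0.138), and that of miR390a was lost without LR-DS replicate 2, LR-CT replicate 2 or LR-CT replicate 3 (FDRs of 0.0791, 0.198 and 0.157). A replicate block in the model ended the call on miR390a too (FDR 0.182). miR157a, whose seed overlaps that of miR156, gave 0.49 ± 0.65 (FDR 0.577) in lateral roots.

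By Spearman correlation of log2 CPM over the 12 libraries, the miRNAs most like miR156a were miR166f (0.807) and miR530a (0.752), and those most like miR156b were miR164a (0.741) and miR164e (0.657). miR156c was closest to a miRNA named by its sequence only (0.720) and to miR166b (0.716). No miRNA resembled miR172a closely, with 0.388 for miR2950a as the highest of 74. Among the members, miR156a and miR156b ran in opposite order (-0.717), whereas miR172a was weakly related to miR156a (0.302) and miR156b (-0.199). These values describe libraries of 4 groups that share their scaling, and many counts behind those of miR156a, miR156c and miR172a were 0.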

How the data were processed

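Small RNA reads of 12 libraries were trimmed by the authors with Cutadapt, keeping at least 15 nt, and mapped and quantified with ShortStack and Bowtie against miRBase sequences. The deposited values are raw counts of reads for each mature miRNA and were not normalized. Versions and the genome build used for small RNAs are not given in the sources used here. Groups were taken from sample titles. The members and lists were chosen with earlier results of these data known. All miRNAs with at least 1 count were tested in R 4.3.3 with edgeR 4.0.16 (TMM, quasi-likelihood F test, Benjamini-Hochberg adjustment over all miRNAs tested, FDR threshold 0.05), within the 6 libraries of each comparison and over all 12 for the interaction. The standard error is the absolute log2FC divided by the square root of F. Family totals are summed counts, refitted over 47 families and sequence-named miRNAs. The miRNAs named are the 4 members, both totals, all members present of miR157, miR529, miR535, miR159 and miR390, and the 2 miRNAs most like each member. log2 CPM used a prior count of 2. Alternatives were DESeq2 1.42.0 (Wald test, no independent filtering), scaling by library size with or without the most abundant miRNA, RLE factors, filterByExpr, a joint fit of all 12 libraries (for the interaction, TMM within each root type), a replicate block, leaving out each library, and leaving out TR-CT replicate 3 with TR-DS replicate 2. The dispersion trend of DESeq2 had not been specified in advance. A local trend was run first and the default parametric trend afterwards, with results in view. The default trend, which is given as DESeq2 in the text, is therefore the alternative added after seeing the data. The local trend made more calls. Its FDRs for both family totals, miR156b, miR156c and miR172a are given wherever they passed. The test was also run on simulated data in which only miRNAs with many counts were changed. That check therefore did not cover miR172a, miR156c or, in taproots, miR156a. Nothing says that replicates with the same number came from the same plants. The p-values set a difference between groups against the spread between libraries within these groups.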

Additional observations from a re-analysis of the deposited data

How the results depend on the processing

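Most of the alternatives kept each result's direction and side of the threshold, and the cause of the changes was not tested except where fewer libraries or another scaling are themselves the change. Scaling moved the median log2FC of all miRNAs in lateral roots by -1.16 (library size alone), 0.25 (RLE) and 0.64 (without the most abundant sequence), and in taproots by -0.45, 0.20 and -0.21. In lateral roots the calls were accordingly 7 higher and 17 lower with TMM, 2 and 33 by library size, and 14 and 9 without the most abundant sequence. Depth limits miR156a, miR156c and miR172a most of all in LR-DS replicate 3, where 3 counts equal 20.0 CPM.

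By library size alone, the log2FC in lateral roots was -0.59 for miR156b, -0.74 for miR157a and -0.73 for the miR156 total, and that of miR390a in taproots was -0.43. In the family table, 31 rows, each a family or a sequence-named miRNA, were called in lateral roots. Between root types the log2FC was 0.68 (control) and -0.21 (drought) for miR156b and 0.80 for the miR156 total under control. The interaction was -0.90 for miR156b and -1.07 for the miR156 total. Library size alone called 1 miRNA and 1 row of the family table in taproots, 1 miRNA between root types under control and 1 in the interaction. With RLE factors, taproot values were 0.048 for miR159a and 0.031 for miR390b, and miR156b gave -0.090 between root types under drought. Without the most abundant sequence, lateral root values were 0.29 for miR390b and 0.17 for miR535a, and the miR156 total gave 0.14 between root types under drought. With filterByExpr, miR156b gave -0.0026 and the miR156 total 0.16 in that comparison, and 1 miRNA was called between root types under control. In 1 fit of all 12 libraries, taproot values were -0.48 for miR157a, -0.18 for miR390a and -0.0042 for miR156b, the miR156 total gave 0.080 between root types under drought, and 0 miRNAs and 0 families were called in lateral roots.

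With DESeq2's default trend, 1 miRNA and 1 family were called in taproots, 1 miRNA and 1 family in the interaction and 1 miRNA between root types under control. miR159a and miR390b gave 0.048 and 0.031 in taproots, and miR156b gave -0.091 between root types under drought. The miR172 total passed in taproots (6.84, FDR 0.0442) and in the interaction (-7.93, FDR 0.0396), as did miR156b in lateral roots (0.83, FDR 0.0270). With the local trend, 1 miRNA and 1 family were called in taproots and 1 of each in the interaction. Between root types under control, that trend called 4 miRNAs and 8 rows of the family table. The miR172 total passed there (4.20, local FDR 0.0299), but not with the default trend (FDR 0.122). It also passed with the local trend in taproots (FDR 0.0161) and in the interaction (FDR 0.0187). In lateral roots the local FDR was 0.000104 for miR156b and 0.00131 for the miR156 total. With the same trend, miR159a gave 0.048 and miR390b 0.030 in taproots, and miR156b -0.090 between root types under drought. The DESeq2 FDR of miR172a in taproots was 0.0276 with the default and 0.00543 with the local trend, that of its interaction 0.0339 and 0.0143, and that of miR156c in lateral roots passed with the local trend (0.0300) but not with the default (0.215). DESeq2 gave no p for miR156a in taproots, in the interaction or between root types under drought. Both DESeq2 trends thus called miR172a in taproots, whereas edgeR did not.

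Replicates with the same number did not deviate together in every pair (correlations of -0.27, 0.71 and 0.37 in taproots and -0.25, -0.086 and -0.020 in lateral roots), so the numbers were not taken as pairs. With the replicate block, 2 miRNAs were called in taproots and 17 in lateral roots, miR157a gave -0.067 in taproots and the miR156 total 0.063 between root types under drought. Without TR-CT replicate 3 and TR-DS replicate 2, 7 miRNAs and 14 rows of the family table were called in taproots and 1 miRNA in the interaction. Taproot values were then -0.53 for miR156b, -0.64 for miR390a and -0.44 for the miR156 total.

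Leaving out each library in turn gave, in taproots, log2FC values of -4.64 to 7.90 for miR156a, -0.73 to 1.32 for miR156b, -0.51 to 1.40 for miR157a, -0.19 to 0.65 for miR390a, -0.90 to 0.14 for miR390b and -0.19 to 0.82 for the miR156 total. In lateral roots, 14 to 32 miRNAs and 11 to 29 rows of the family table were called. The values there were -0.50 to 0.096 for miR535a, -0.54 to 0.035 for miR390b and -6.72 to 0.12 for the miR172 total. Between root types, 0 to 2 miRNAs were called under control and 0 to 2 under drought, with -0.87 to 0.58 for miR156b under control, -0.51 to 0.72 for miR156b under drought and -0.42 to 0.61 for the miR156 total under drought. In the interaction, 0 to 1 miRNAs and 0 to 1 rows of the family table were called. The log2FC of miR172a in taproots stayed between 5.24 and 7.92.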
